A study of Homo sapiens with 4 samples.

Results

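The BCL2 family decides at the outer mitochondrial membrane whether a stressed cell lives or dies, and 10 of its genes are described here in human myeloma cells after knockdown of the cytokine MIF. They were taken by name as 4 guardians (BCL2, BCL2L1, MCL1 and BCL2A1), 4 BH3-only genes (BCL2L11, BID, PMAIP1 and BBC3) and 2 effectors (BAK1 and BAX). Each had exactly 1 annotated probe set, so 10 probe sets were read of the 16098 that carry a gene symbol, or 10 genes of 14884. All 10 passed a filter on dim genes, which 7442 genes passed. Levels are log2 of the deposited probe set intensity, and a difference is MIF-KO minus CTR-KO on it.

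The arrays compared, 1 per group, were 4: MIF-KO ARP-1, CTR-KO ARP-1, MIF-KO MM.1S and CTR-KO MM.1S. ARP-1 and MM.1S are established lines of multiple myeloma, a cancer of antibody-secreting plasma cells. Both conditions share the lentivirus, a short hairpin RNA (against MIF, or a control hairpin named CTR) and sorting for the green marker, so KO names a knockdown in a sorted pool. Nothing in the labels speaks of separate cultures. The question is how the transcripts of survival and death proteins stand when MIF is lowered.

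In the textbook scheme the guardians hold the effectors BAK1 and BAX in check, BH3-only proteins block the guardians or switch on the effectors, and active effectors open pores that release cytochrome c. Myeloma cells are known to lean on MCL1, and some on BCL2, which the drug venetoclax blocks. Much of the control lies in protein binding, cleavage and turnover, which an RNA array does not see.

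MIF itself checks the titles. Its intensity was 541 on the MIF-KO array and 1092 on the CTR-KO array of ARP-1 (49.6% of control), and 405 on the MIF-KO array and 1012 on the CTR-KO array of MM.1S (40% of control). By size the MIF difference ranked 475 of 7442 tested genes for ARP-1 and 24 for MM.1S. In ARP-1 6.37% of tested genes differed more between the same arrays, so MIF alone does not settle the titles there. For the ARP-1 pair the description field gives the other condition, so every direction in ARP-1 rests on the titles and genotype labels. Array medians over all probe sets lay between 13.1 and 13.3 intensity units. Of 10 plasma cell markers 7 had a named probe set, and 6 of them passed the filter (SDC1, CD38, IRF4, XBP1, MZB1 and SLAMF7). The differences of these markers had a median of 0.16 in ARP-1 and 0.18 in MM.1S, and they ran both ways. In ARP-1 SDC1 and CD38 stood at -1.36 and -1.44, XBP1 at 0.51, MZB1 at 0.45, IRF4 at 0.29 and SLAMF7 at 0.02. In MM.1S SDC1 stood at 0.48, CD38 at 0.46, SLAMF7 at 0.37, IRF4 at -0.01, XBP1 at -0.05 and MZB1 at -0.63. Their part in the results was not tested. Markers of B, T, myeloid, stromal and epithelial cells passed in 0 of 9 cases, with mean levels from 2.48 to 4.94 against a filter of 4.97.

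**Figure D1:**
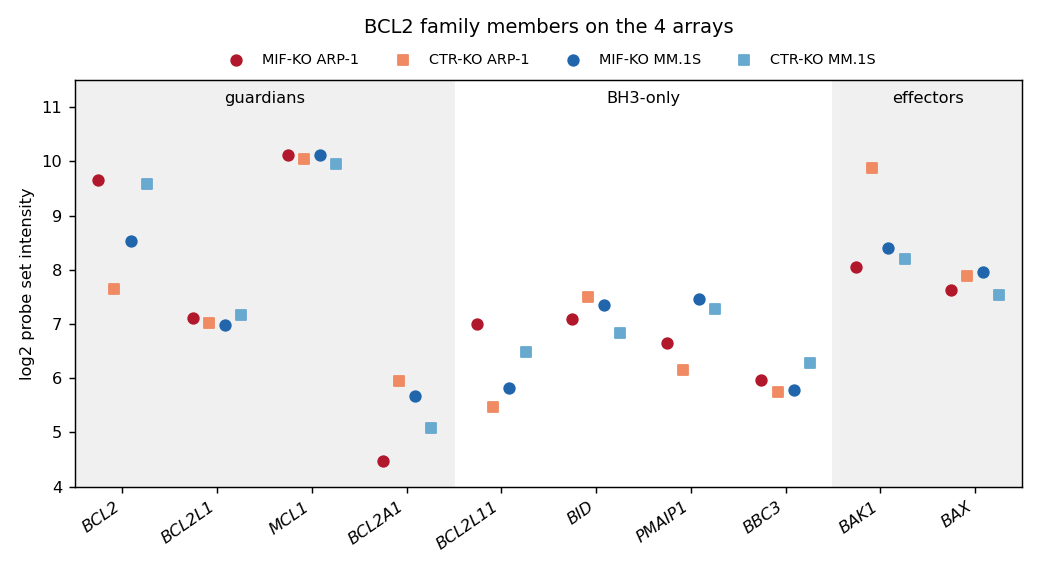
Log2 probe set intensity (vertical axis) of the 10 genes, grouped by role, with circles for MIF-KO and squares for CTR-KO, red tones for ARP-1 and blue tones for MM.1S. MCL1 and BCL2L1 sit at nearly the same height on all 4 arrays, while BCL2, BCL2A1, BCL2L11 and BAK1 spread widely.

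BCL2, the founding guardian, had the widest spread of the family. Its level was 9.66 on MIF-KO ARP-1 and 7.65 on CTR-KO ARP-1, a difference of 2.01 or 4.02-fold. In bulk RNA a change in the mix of cells and a change per cell cannot be told apart. In MM.1S BCL2 stood at 8.53 on MIF-KO and 9.58 on CTR-KO, a difference of -1.05, or 48.4% of control. BCL2 was thus high on MIF-KO ARP-1 as well as CTR-KO MM.1S, lower on MIF-KO MM.1S and lowest on CTR-KO ARP-1, and the conditions overlap. By size the difference ranked 42 of 7442 tested genes for ARP-1 and 63 for MM.1S.

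BCL2A1, a guardian known as a target of NF-kappaB in lymphoid cells, ran the other way. Its level was 4.46 on MIF-KO ARP-1 and 5.94 on CTR-KO ARP-1, a difference of -1.48 (36.0% of control). It was 5.66 on MIF-KO MM.1S and 5.08 on CTR-KO MM.1S, a difference of 0.59. This gene was the dimmest of the family, and its lowest value lay under the filter of 4.97 that its mean of 5.29 passed. The difference in MM.1S sat on the 1.5-fold line (1.5002-fold) and dropped under it when the arrays were rescaled.

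MCL1, the short-lived guardian on which many myeloma cells depend, was the steadiest of the 10. It read 10.12 on MIF-KO ARP-1 and 10.05 on CTR-KO ARP-1, then 10.12 on MIF-KO MM.1S and 9.95 on CTR-KO MM.1S. Its highest and lowest arrays were 1.12-fold apart, and 93.5% of tested genes had a wider range. MCL1 was also the single member whose MIF-KO arrays both lay above both CTR-KO arrays, as 11.2% of all tested genes did, and the mean difference of 0.12 (SE 0.27) was smaller than its error.

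BCL2L1, which encodes BCL-XL and can be spliced to a pro-death short form, was nearly as flat. Its level was 7.11 on MIF-KO ARP-1 and 7.03 on CTR-KO ARP-1, and 6.97 on MIF-KO MM.1S and 7.16 on CTR-KO MM.1S. The range was 1.14-fold. One probe set per gene does not separate splice forms.

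Among the BH3-only genes BCL2L11, which encodes BIM and is known to bind every guardian, varied most. It read 7.01 on MIF-KO ARP-1 and 5.46 on CTR-KO ARP-1, a difference of 1.54 (2.91-fold). On MIF-KO MM.1S it was 5.82 against 6.48 on CTR-KO MM.1S, a difference of -0.66 (63.1% of control). The order of the arrays was that of BCL2: highest on MIF-KO ARP-1, then CTR-KO MM.1S, MIF-KO MM.1S and CTR-KO ARP-1. The share of all tested genes with this order was not counted, so it is not shown to be particular to this pair.

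BID, which a death-receptor caspase cleaves into its active form, differed less. It was 7.10 on MIF-KO ARP-1 and 7.51 on CTR-KO ARP-1 (difference -0.41), and 7.34 on MIF-KO MM.1S and 6.83 on CTR-KO MM.1S (difference 0.52). BBC3, the p53 target PUMA, was 5.98 on MIF-KO ARP-1 and 5.75 on CTR-KO ARP-1 (difference 0.23). In MM.1S BBC3 read 5.78 on MIF-KO and 6.28 on CTR-KO (difference -0.50). Neither BID nor BBC3 reached 1.5-fold in a line.

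PMAIP1, which encodes NOXA, a selective binder of MCL1 and BCL2A1, differed more by line than by condition. It read 7.46 on MIF-KO MM.1S and 7.29 on CTR-KO MM.1S, against 6.65 on MIF-KO ARP-1 and 6.16 on CTR-KO ARP-1. Both MM.1S arrays thus lay above both ARP-1 arrays, as in 15.8% of all tested genes. Within lines the differences were 0.49 for ARP-1 and 0.18 for MM.1S.

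BAK1, the effector that sits in the outer membrane already before a death signal, stood out through 1 array. Its level was 8.05 on MIF-KO ARP-1 and 9.89 on CTR-KO ARP-1, a difference of -1.84 (28.0% of control, rank 62 of 7442 by size). On MIF-KO MM.1S it was 8.40 and on CTR-KO MM.1S 8.21, a difference of 0.20. The other 3 arrays lay within 0.35 of each other, and CTR-KO ARP-1 was far above them.

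BAX, the effector that moves from the cytosol to mitochondria, had the same signs at small size. It was 7.63 on MIF-KO ARP-1 and 7.88 on CTR-KO ARP-1 (difference -0.25). In MM.1S it was 7.96 on MIF-KO and 7.53 on CTR-KO (difference 0.43). Its highest and lowest arrays were 1.35-fold apart.

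**Figure D2:**
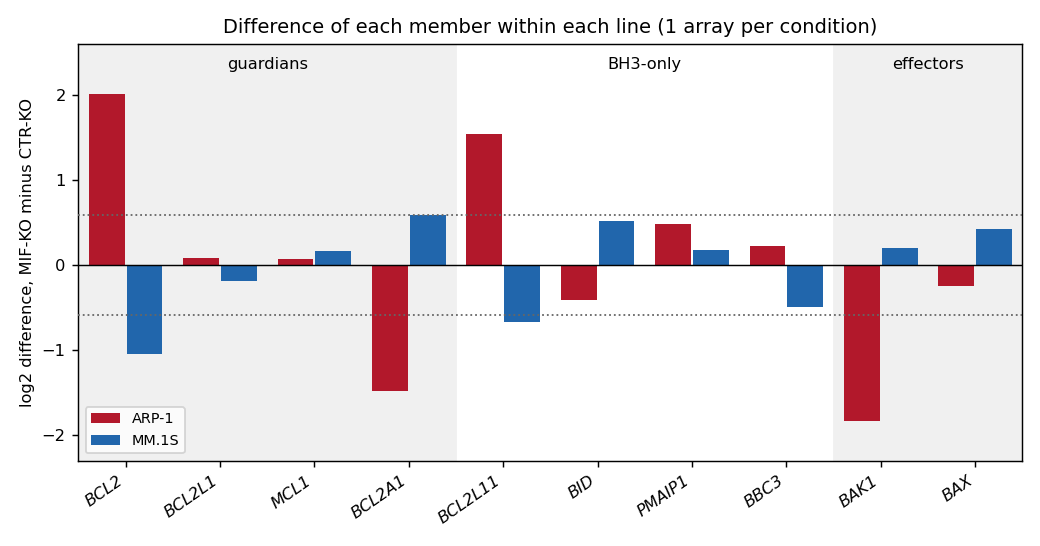
Log2 difference, MIF-KO minus CTR-KO, of each gene in ARP-1 (red bars) and MM.1S (blue bars), with dotted lines at 1.5-fold. BCL2, BCL2A1, BCL2L11 and BAK1 differ more than 2-fold in ARP-1. Of the blue bars BCL2A1 touches the line and BCL2 and BCL2L11 cross it.

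At 1.5-fold or more, 2 of the 10 genes were higher in MIF-KO ARP-1 (BCL2 and BCL2L11), where 10.9% of all tested genes were. Another 2 were lower (BCL2A1 and BAK1), against 11.9% of all. In MM.1S 1 was higher (BCL2A1, against 5.12% of all) and 2 were lower (BCL2 and BCL2L11, against 2.89%). With 1 array per line and condition these differences have no replicate check.

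By role, the guardians had 1 gene higher and 1 lower at 1.5-fold in each line, though BCL2A1 only sat on that line in MM.1S. Their medians were 0.08 for ARP-1 and -0.01 for MM.1S. The BH3-only genes had medians of 0.36 and -0.16, and the effectors, with 2 genes, of -1.04 and 0.31. Over all tested genes the medians were -0.03 for ARP-1 and 0.04 for MM.1S. The median size of a difference, sign aside, was 0.45 for ARP-1 and 0.46 for MM.1S for the family, and 0.29 and 0.20 for all tested genes; the family was listed with these differences known.

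Ratios within an array show how unequally the genes differed. The ratio of BCL2 to BAK1, survival guardian over pore former, was 14.4-fold higher in MIF-KO ARP-1 than in CTR-KO ARP-1 (3.85 on the log2 scale). It was 2.37-fold lower in MIF-KO MM.1S than in CTR-KO MM.1S (-1.25). This pair joins the highest and the lowest difference in ARP-1, so its ARP-1 value is the largest of all pairs. For both genes CTR-KO ARP-1 was the array farthest from the mean. Over the other effector, BAX, the ratio of BCL2 was 4.79-fold higher in MIF-KO ARP-1 and 2.78-fold lower in MIF-KO MM.1S. The ratio of BCL2 to BCL2L11 differed far less, by 0.47 for ARP-1 and -0.38 for MM.1S, since the guardian and its antagonist differed alike. BCL2A1 over BAK1 differed by 0.36 for ARP-1 and 0.39 for MM.1S. MCL1 over PMAIP1 differed by -0.42 for ARP-1 and -0.02 for MM.1S.

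**Figure D3:**
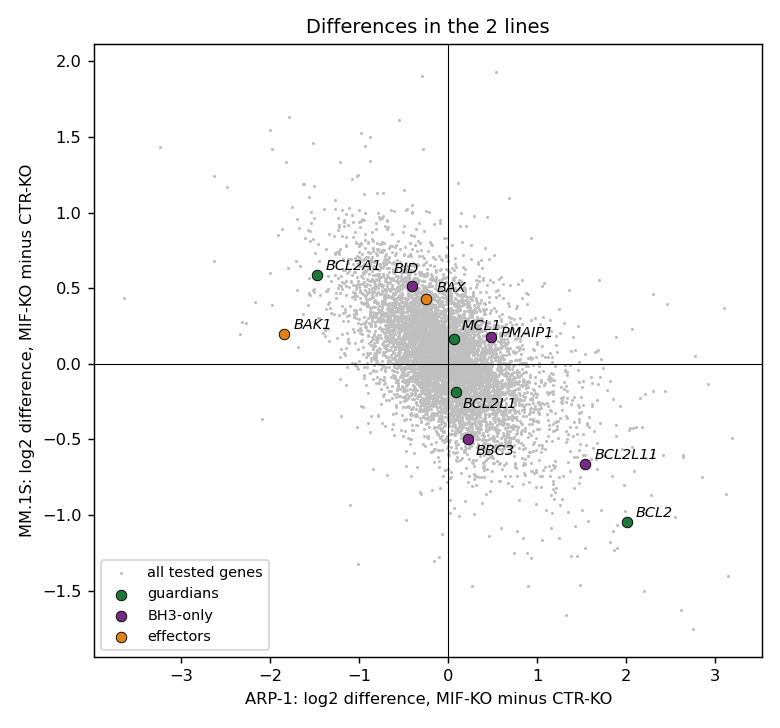
Log2 difference, MIF-KO minus CTR-KO, in ARP-1 (horizontal) against MM.1S (vertical) for the 7442 tested genes (grey) and the 10 family genes, coloured by role. BCL2 and BCL2L11 lie at lower right and BCL2A1 at upper left, along the slope of the grey cloud.

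Of the 10 genes 8 had opposite signs in the lines, as 67.6% of all tested genes had; MCL1 and PMAIP1 were the exceptions. BCL2, BCL2A1 and BCL2L11 were at least 1.5-fold apart in both lines in opposite directions, 3 of 10 against 4.88% of all tested genes. A test of that difference between lines was not possible with 1 array each. In MM.1S BCL2A1 sat on the 1.5-fold line and dropped under it when the arrays were rescaled. The family was listed with these differences known.

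Averaged over both lines, no member passed. The model was limma with the terms cell line and condition, in which disagreement between the lines is the error. At the threshold of 0.05 it called 0 of 10 members and 0% of all 7442 genes (smallest limma adjusted p 0.99995). Unadjusted p was below 0.05 for 29 genes, 0 of them members. BAK1 had the largest mean difference, -0.82 (SE 0.54), with a 95% interval from -2.22 to 0.58. BCL2 averaged 0.48 (SE 0.75), from -1.44 to 2.40, and PMAIP1 0.33 (SE 0.29), from -0.41 to 1.07. These intervals hold differences of more than 2-fold, so the 0 calls do not show that levels were equal.

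If the descriptions of the ARP-1 arrays were right and the titles wrong, the family would read differently. With these arrays exchanged, limma called 5.39% of all genes and 3 of the 10: BCL2 at -1.53 (adjusted p = 0.0109), BCL2L11 at -1.10 (adjusted p = 0.0276) and BCL2A1 at 1.03 (adjusted p = 0.0330). BAK1 stood at 1.02 and did not pass (limma adjusted p = 0.0799). The exchange turns the sign of every ARP-1 difference, so large opposite differences become alike in the lines by construction. The 3 genes called are those already at least 1.5-fold apart in both lines in opposite directions, in a family listed with these differences known. Their calls restate those differences and are no separate result. The exchange would leave MIF 2.02-fold higher in knockdown ARP-1.

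Between lines, PMAIP1 had the largest difference of the 10, 0.97 higher in MM.1S than in ARP-1 (SE 0.29, 95% interval from 0.23 to 1.71). Its unadjusted limma p was 0.0198, one of 87 below 0.05, and its adjusted p was 0.99986. The fit called 0% of genes between lines. Both MM.1S arrays above both ARP-1 arrays was also the state of 15.8% of all tested genes. BAK1 differed by -0.66 (SE 0.54) and BCL2 by 0.40 (SE 0.75), while BCL2L1 and BAX differed by -0.003 and -0.01, means that hide opposite signs within conditions: MM.1S minus ARP-1 was -1.13 for BCL2 among MIF-KO arrays and 1.93 among CTR-KO arrays.

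Seen array by array, MIF-KO ARP-1 and, next to it, CTR-KO MM.1S were closest in these genes, with a root mean square distance of 0.36 over the 10 levels (0.32 over all tested genes). The farthest pair was MIF-KO ARP-1 and CTR-KO ARP-1, at 1.12 (0.55 over all). Over all tested genes the ARP-1 arrays thus lay farther apart than the closest pair, which crosses line and condition. The MM.1S arrays were 0.34 apart over all tested genes, also more than that pair. By these distances the arrays did not group by line, and why was not tested. CTR-KO ARP-1 lay farthest from the gene's own mean in 3 of 10 genes (BCL2, PMAIP1 and BAK1), where 38.9% of all tested genes had that array farthest. For BCL2A1 and BCL2L11 the farthest array was MIF-KO ARP-1.

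Genes with the most similar profile were sought among the tested genes, by the smallest root mean square distance between centred log2 levels over the 4 arrays. For BCL2 they were HSD17B14, a steroid dehydrogenase (distance 0.10), CALCOCO1, a reticulophagy receptor (0.11), and TCP11L2 (0.13). For BCL2L11 they were EFEMP2, GPR63 and the small RNA SCARNA3, at 0.04 to 0.09. For BCL2A1 they were the cyclin-dependent kinase CDK6 (0.02), the protease ADAM19 (0.05) and MAK16 (0.06). For BAK1 they were the phosphatase DUSP2 (0.09), the retinol dehydrogenase RDH10 (0.12) and CCDC86 (0.15). With 4 arrays such likeness is a description of these libraries alone.

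Promoter sequences are shown for the 4 genes with the widest spread, since BCL2 and BCL2L11 took the same order over the arrays and BCL2A1 and BAK1 ran against them. Each window holds 250 bases before and 50 after a RefSeq start (build GRCh38.p14, strand of the gene). Capitals mark matches on either strand to TGTTTAC (FOXO factors), TGATGNAA (ATF4), CACGTG (E-box) or an NF-kappaB pattern of GGG and TTTCC parted by 2 bases of any kind.
BCL2, chr18:63319720-63320019, minus strand: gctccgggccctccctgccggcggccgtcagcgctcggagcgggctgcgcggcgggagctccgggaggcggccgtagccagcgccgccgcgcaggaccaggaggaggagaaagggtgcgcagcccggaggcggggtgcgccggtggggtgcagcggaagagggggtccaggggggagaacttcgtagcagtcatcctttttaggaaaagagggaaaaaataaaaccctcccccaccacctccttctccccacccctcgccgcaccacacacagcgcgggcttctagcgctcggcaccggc
BCL2L11, chr2:111120664-111120963, plus strand: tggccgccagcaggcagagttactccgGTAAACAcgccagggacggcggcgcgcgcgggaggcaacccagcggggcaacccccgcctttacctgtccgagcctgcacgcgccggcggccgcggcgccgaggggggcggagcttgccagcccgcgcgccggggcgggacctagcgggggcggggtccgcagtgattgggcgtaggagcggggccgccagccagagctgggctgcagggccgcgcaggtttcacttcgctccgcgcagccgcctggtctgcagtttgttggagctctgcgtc
BCL2A1, chr15:79971147-79971446, minus strand: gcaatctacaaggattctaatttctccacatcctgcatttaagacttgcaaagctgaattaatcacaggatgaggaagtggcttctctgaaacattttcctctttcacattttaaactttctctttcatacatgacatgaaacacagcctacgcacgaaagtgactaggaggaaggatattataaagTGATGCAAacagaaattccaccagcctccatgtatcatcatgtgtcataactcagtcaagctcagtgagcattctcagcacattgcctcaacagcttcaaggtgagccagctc
BAK1, chr6:33580227-33580526, minus strand: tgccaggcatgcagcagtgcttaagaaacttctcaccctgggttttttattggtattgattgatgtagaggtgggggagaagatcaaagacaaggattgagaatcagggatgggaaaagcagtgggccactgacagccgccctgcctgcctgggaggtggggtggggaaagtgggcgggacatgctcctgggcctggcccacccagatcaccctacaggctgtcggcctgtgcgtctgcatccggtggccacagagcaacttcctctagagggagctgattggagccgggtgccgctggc

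The BCL2 and BCL2L11 windows are rich in G and C, at 70.7% and 74.7%, with 31 and 39 CpG pairs. BCL2A1 had 41.0% and 2 pairs, and BAK1 58.7% and 7. The median of all 35116 windows was 58.7% and 14 pairs. Among members with the signs of BCL2A1 and BAK1, BAX had 67.3% and 38 pairs, and the windows of BID had 48.7% to 78.0%. Among those with the signs of BCL2, BBC3 had 48.0% and 5 pairs, and the windows of BCL2L1 had 52.0% and 61.3%. G and C content thus did not sort the members by direction. BCL2L11 held 1 FOXO match, as 3.42% of all windows did, and BCL2A1 held 1 ATF4 match, as 3.62% did. BCL2 and BAK1 held none of the searched letters. Elsewhere in the family BAX held 4 E-box matches, BBC3 1, and 2 overlapping windows of BID shared 1, where 7.26% of all windows had any. The NF-kappaB letters (1.91% of all windows) were in none of the members' windows. Windows matched 9 of the 10 genes.

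**Figure D4:**
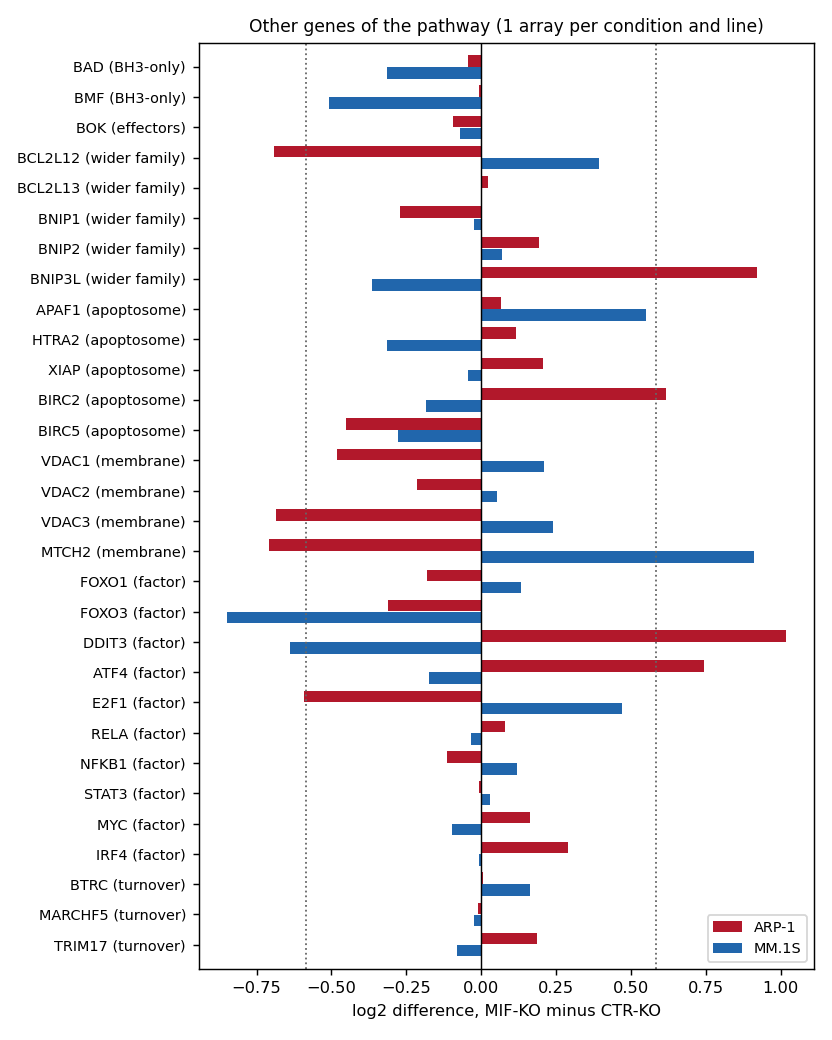
Log2 difference, MIF-KO minus CTR-KO, of other tested genes of the death pathway in ARP-1 (red) and MM.1S (blue), with dotted lines at 1.5-fold and the list of each gene in brackets. Outer membrane partners lie left of 0 in ARP-1 and right of 0 in MM.1S.

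The remaining guardians, BH3-only genes and effectors stayed under 1.5-fold in both lines where tested. The guardian BCL2L10 (levels 2.96 to 3.35) and the BH3-only BIK (3.05 to 3.13) lay under the filter. BAD, a BH3-only gene controlled by phosphorylation, differed by -0.04 for ARP-1 and -0.31 for MM.1S. BMF, held on the cytoskeleton until released, differed by -0.01 and -0.51, and its dimmer probe set gave -0.18 and -0.51. BOK, the third pore-forming relative, differed by -0.09 and -0.07.

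In the wider family 5 of 8 genes were tested, and 1 was higher and 1 lower at 1.5-fold in ARP-1 (10.9% and 11.9% of all tested genes), with 0 in MM.1S (5.12% higher and 2.89% lower among all). BNIP3L, a mitophagy receptor, differed by 0.92 for ARP-1 and -0.37 for MM.1S. BCL2L12 differed by -0.69 and 0.39, BNIP1 by -0.27 and -0.02 and BNIP2 by 0.19 and 0.07.

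Outer membrane partners, the channels and docking proteins at which BAK1, BAX and BID act, had the same signs of difference. All 4 had negative differences in ARP-1 and positive ones in MM.1S, with medians of -0.58 and 0.23. MTCH2, a receptor for cleaved BID, differed by -0.71 for ARP-1 and 0.91 for MM.1S. VDAC3 differed by -0.69 and 0.24, VDAC1 by -0.48 and 0.21, and VDAC2, which holds BAK1 at the membrane, by -0.21 and 0.05. Across all tested genes 67.6% had opposite signs too, counted in either direction, and limma called 0 of the 4. At 1.5-fold 2 were lower in MIF-KO ARP-1, against 11.9% of all tested genes. In MIF-KO MM.1S 1 was higher, against 5.12%.

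Downstream of the pore 5 of 11 listed genes had a tested probe set, with medians of 0.12 for ARP-1 and -0.19 for MM.1S. APAF1, the scaffold of the apoptosome, differed by 0.07 and 0.55 and BIRC2 by 0.62 and -0.19. BIRC5 differed by -0.45 and -0.28 and the protease HTRA2 by 0.12 and -0.31. Of these 5 BIRC2 alone reached 1.5-fold, higher in MIF-KO ARP-1 as 10.9% of all tested genes were.

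Of 13 transcription factors known to act on these genes 10 were tested, and 9 had opposite signs in the lines, where 67.6% of all tested genes had. DDIT3 (CHOP), which represses BCL2 and induces BCL2L11 under endoplasmic reticulum stress, differed by 1.02 for ARP-1 and -0.64 for MM.1S, though its level of 4.17 on CTR-KO ARP-1 lay under the filter of 4.97. ATF4 differed by 0.74 and -0.17. E2F1, an activator of several BH3-only genes, differed by -0.59 and 0.47. FOXO3, an activator of BCL2L11, differed by -0.31 and -0.85, and its other probe set by -0.02 and -0.22, so the size of its difference depends on the probe set. Of the turnover list 3 of 8 were tested: BTRC differed by 0.01 and 0.16, TRIM17 by 0.19 and -0.08 and MARCHF5, a ligase for MCL1 and NOXA, by -0.01 and -0.02. Limma called 0 genes of these lists.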

How the data were processed

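RNA of 4 samples was read on whole-transcript arrays. The deposited values are intensities of 53617 probe sets on a linear scale (2.74 to 15935), and log2 of them was taken with no pseudocount. Per the submitters' processing notes RMA and limma were used, with no version or role. Annotation, build and background step: not given in the sources used here. A platform annotation named 16098 probe sets (1 symbol each), and all matched RefSeq by Entrez ID. For the 779 genes with several probe sets the one of highest mean stood for the gene. Genes at or above the median mean (4.97) were tested.

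The fit across all genes was limma 3.58.1 in R 4.3.3 (terms cell line and condition, eBayes with trend, 1 residual and 3.99 prior degrees of freedom, Benjamini-Hochberg adjustment, threshold 0.05), checked on simulated data. Cell line is the pairing, from the labels. Deviations of ARP-1 arrays from their condition means correlated at -0.373 over genes. P-values measure only the spread between these 4 samples, here how far the lines disagree. That spread may be technical or a true difference of the lines, and the design cannot separate them. Opposite signs in the lines, seen in 67.6% of tested genes, enter this error and make calls rarer. The members and lists were chosen with earlier results of these data known. All 10 members are named, and of further lists the remaining guardians, BH3-only genes and effectors with a probe set and up to 4 tested genes of largest difference. Arrays give no depth, so their number limits precision. Alternatives were other filters, scalings, a pseudocount, probe set rules, no trend, no line term, exchanged ARP-1 arrays and each array left out. Promoter windows came from RefSeq (GRCh38.p14).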

Additional observations from a re-analysis of the deposited data

Results flagged for a closer look

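Some responses pointed in opposite directions in the lines and were at least 1.5-fold apart from each other. The difference was not tested, since each line has 1 array per condition. As the response of MM.1S minus that of ARP-1 on the log2 scale, it was -3.06 for BCL2, 2.06 for BCL2A1, -2.21 for BCL2L11, 0.92 for BID, -0.72 for BBC3, 2.03 for BAK1 and 0.68 for BAX. Among the other named genes of the pathway it was 1.09 for BCL2L12, -1.29 for BNIP3L, -0.80 for BIRC2, 0.69 for VDAC1, 0.93 for VDAC3, 1.62 for MTCH2, -1.66 for DDIT3 (with CTR-KO ARP-1 under the filter), -0.92 for ATF4 and 1.06 for E2F1. CTR-KO ARP-1 is the array farthest from the mean for BCL2 and BAK1. Leaving out either ARP-1 array removes the ARP-1 difference altogether, so the part of a single array in these values was not tested.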

How the results depend on the processing

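The 0 calls between conditions held under 8 alternatives, the fit with no replicate block (no cell line term) among them, and turned to 401 with the ARP-1 arrays exchanged. That exchange moved the mean differences to -1.53 for BCL2, 1.03 for BCL2A1, -1.10 for BCL2L11, 1.02 for BAK1 and -0.15 for PMAIP1, and the ARP-1 differences to -2.01 for BCL2, 1.48 for BCL2A1, -1.54 for BCL2L11 and 1.84 for BAK1, by its construction. Genes with opposite signs then numbered 2 in place of 8. At 2-fold in place of 1.5-fold, a threshold added after seeing the data, 1 gene in place of 3 differed in MM.1S and 4 of 4 in ARP-1. At 1.5-fold the MM.1S count was 2 in place of 3 with arrays shifted to one median, quantile normalization or a pseudocount, as BCL2A1 dropped out. Quantile normalization put MM.1S minus ARP-1 at 0.0012 for BAX and 0.0004 for BCL2L1. With each array left out in turn no error can be estimated, and the condition difference ranged from -1.84 to 0.20 for BAK1, -0.25 to 0.43 for BAX, -0.50 to 0.23 for BBC3, -1.05 to 2.01 for BCL2, -1.48 to 0.59 for BCL2A1, -0.19 to 0.087 for BCL2L1, -0.66 to 1.54 for BCL2L11 and -0.41 to 0.52 for BID. The difference between lines ranged from -1.68 to 0.35 for BAK1, -0.35 to 0.33 for BAX, -0.20 to 0.53 for BBC3, -1.13 to 1.93 for BCL2, -0.86 to 1.20 for BCL2A1, -0.14 to 0.13 for BCL2L1, -1.19 to 1.02 for BCL2L11 and -0.68 to 0.24 for BID. Each left-out condition difference is that of the line left whole, and each left-out line difference is that within the condition left whole. These ranges thus restate differences between single arrays. MCL1 and PMAIP1 kept their signs in these left-out fits, which was fixed by their like signs in both lines and both conditions. Genes with an unadjusted p below 0.05 between conditions numbered 29, 272 without the filter, 4 with the stricter one, 13 without the trend and 1704 with the exchange. Between lines they numbered 87, 439 without the filter, 26 with the stricter one and 727 with the exchange. Single arrays per line and condition set the limit of all these values.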
